A study of Mus musculus with 12 samples.

Results

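The HA-Sox4 experiment of this series asked which genes move when HA-tagged Sox4 is put back into immortalized progenitor B cells with floxed Sox4 alleles and SE-Cre. It consisted of 6 of the series' 12 arrays, the 3 titled Sox4fl/fl SE-Cre HA-Sox4 and the 3 titled Sox4fl/fl SE-Cre HA, chosen by their titles and normalized without the others. The other 6 arrays held primary cells, either Sox4fl/fl or Sox4fl/fl SE-Cre, and are used here only for comparison. All cells were progenitor B cells of embryonic fetal liver from C57BL/6 mice, and total RNA was hybridised to Illumina mouse bead arrays of 45281 probes, read in 1 colour. Both groups of the HA-Sox4 experiment carried the floxed Sox4 alleles and SE-Cre, and both had been immortalized with p190 Bcr-Abl, an oncogenic fusion tyrosine kinase found in acute lymphoblastic leukaemia. The groups therefore differed by label only in HA against HA-Sox4, HA being an epitope tag. The promoter that drives SE-Cre, the way HA-Sox4 was introduced, and whether 1 immortalized culture gave rise to both groups are points not given in the sources used here. A difference between the cultures and an effect of HA-Sox4 cannot be told apart. Nor do the labels say that the 3 samples of a group were separate cultures, so the p-values take in no more than the spread among these arrays, some or all of it possibly technical.

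Sox4 belongs to the SoxC transcription factors, which bind DNA through an HMG box, and in mice it is needed for B cell precursors to pass the pro-B stage. Pro-B cells rearrange the immunoglobulin heavy chain gene with the recombinase formed by Rag1 and Rag2, and then signal through a pre-B cell receptor built with the surrogate light chain. The series title names the Rag genes and CK1ε, the casein kinase encoded by Csnk1e, as parts of the program under Sox4. Casein kinase 1 epsilon phosphorylates components of the Wnt pathway, whose nuclear effectors are the TCF/LEF factors.

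Median probe intensity was between 114.5 and 139.2 on the 6 arrays. Between 36.7% and 37.4% of probes were detected on the HA arrays and between 38.6% and 40.0% on the HA-Sox4 arrays. Pearson correlations of log2 intensity were 0.992 to 0.994 within a group and 0.943 to 0.945 between groups, and no 2 arrays were identical. Of 11 pro-B cell marker genes on the array, 10 were detected on all HA arrays and 11 on all HA-Sox4 arrays. Igll1 and Vpreb1, which encode the surrogate light chain, were bright on every array, at log2 intensities of 14.68 to 14.88 and 13.96 to 14.25. Myeloid genes were at a lower summed level in HA-Sox4 cells, where the 11 myeloid markers on the array added up to 197 to 252 units of normalized intensity, against 1160 to 1224 in HA cells. That sum came from Lyz1, Lyz2 and Fcgr3, while Mpo, Elane, Csf1r, Itgam, Adgre1, Cd14, S100a8 and S100a9 were detected on no array. Erythroid markers added up to 3718 to 4276 units in HA and 1102 to 1430 in HA-Sox4 cells, mast cell and megakaryocyte markers to 184 to 250 and 86.3 to 107, and T and NK cell markers to 105 to 115 and 274 to 316. Hba-a1, Gata1, Alas2 and Slc4a1 of the erythroid list, Pf4, Itga2b, Cpa3, Ppbp, Fcer1a and Ms4a2 of the mast cell list, and Cd3d, Cd3e, Cd3g, Cd8a, Klrb1c, Klrd1 and Ncr1 of the T and NK list were detected on no array, and the T and NK sum moved with Nkg7, a cytotoxic granule gene (2.17 ± 0.14). Dendritic cell markers added up to 458 to 576 units in HA and 643 to 767 in HA-Sox4 cells, where Ly6d, also a B lineage gene, was higher while Siglech and Bst2 fell by 0.55 and 0.92. The sums of hepatocyte and stromal markers were 1351 to 1544 and 1396 to 1732, with Alb, Afp, Ttr and Apoa1 detected on no array. The part of other cells in the results below was not tested.

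Of 9249 genes with a kept probe, 1972 were higher in HA-Sox4 cells (21.3%) and 2113 were lower (22.8%), so that 44.2% differed at an adjusted p under 0.05. The values of the 2 groups did not overlap for 5351 of the 9249 genes, and for 4074 of the 4085 that passed. Groups that do not overlap are therefore common here. The differences were on the log2 scale of normalized intensity, by limma over all 17504 kept probes with Benjamini-Hochberg adjustment, and errors of differences are given as SE with 3 arrays in each group. Rises reached further than falls. With genes detected in 1 group only set at the bound described below, 601 genes were higher and 294 lower by at least 2-fold, 235 and 48 by at least 4-fold, and 95 and 8 by at least 8-fold. Of the genes that rose, 351 were detected on no HA array, and of those that fell, 58 were detected on no HA-Sox4 array. The median difference over all genes was -0.05. When arrays were scaled to 1 median and not quantile-normalized, the test left 1869 genes higher and 1397 lower, which moved the share of higher genes among the calls from 48.3% to 57.2%. The share moved the other way, to 42.6% (1570 higher and 2118 lower), where detection on every array was asked for. It was 44.3% to 44.6% without 1 HA-Sox4 array and 50.7% to 51.2% without 1 HA array. A probe set against a group with no detected array gives only a bound, written "at least". For the bound, each array of that group was given at a minimum the dimmest signal that counted as detected on it, and group means were taken after that. Of the genes given with a plain fold below, some were detected on 1 or 2 arrays of the dimmer group: Cgas, Gria2, Irs2, Thsd1 and Ms4a1 on 1 HA array, Acer3, Ccr7, Cd40, Dusp4, Igf2, Tead1 and Tmem176b on 2, Ramp1 and Fetub on 1 HA-Sox4 array, and Cst7, Muc13 and Zap70 on 2. Counts of gene lists are to be read beside the 21.3% and 22.8% over all genes, and a list's median takes in the fitted values of such bounded genes unless stated. A gene detected on no HA array was kept only through the HA-Sox4 arrays, where it is high, and so could hardly count as a fall. The reverse holds for genes detected on no HA-Sox4 array. List counts and the shares over all genes both include such genes. In bulk samples, fewer cells with a transcript and less of it per cell cannot be told apart.

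Sox4 itself was read by 2 probes. The kept probe had log2 intensities of 4.53, 5.004 and 4.51 on the HA arrays and 5.96, 5.14 and 5.32 on the HA-Sox4 arrays, and it was detected on all of the latter and none of the former. The groups did not overlap, and Sox4 was at least 1.18-fold higher in HA-Sox4 cells (adjusted p = 0.0326). The call was lost when HA replicate 1 or 3 was left out (adjusted p = 0.0892 and 0.0906). The other Sox4 probe was detected on no array. Where the probes lie in relation to the floxed and the introduced sequence was not stated in the labels or files, and these probes bear on the label only as far as the introduced RNA carries them. By comparison, the same kept probe stood at a mean of 10.61 in the primary Sox4fl/fl cells, whose arrays were normalized separately from these.

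The recombinase genes and the casein kinase gene of the series title were higher in every HA-Sox4 array than in any HA array. Nearly all genes past the threshold had groups apart in this way, in 1 direction or the other. Rag1 had log2 intensities of 7.18, 6.73 and 6.67 on the HA arrays and 11.24, 11.01 and 11.01 on the HA-Sox4 arrays, 18.7-fold higher (4.23 ± 0.15, adjusted p = 2.11e-06). Rag2, the second subunit of the recombinase, read 4.73, 4.998 and 4.78 against 5.78, 6.35 and 5.50, at least 1.56-fold higher (adjusted p = 0.00742). Csnk1e read 4.55, 4.53 and 4.73 against 11.02, 10.95 and 11.02, at least 54.3-fold higher, and both of its kept probes rose. The windows around the annotated starts of the title genes, credited to RefSeq (GRCm38.p6), are shown because these genes head the study's question, and A2ml1 because its window alone among the largest rises held the letters AACAAAG, a form of the Sox HMG-box motif. Each window runs from 250 bases before to 50 after the start and is printed along the gene's strand, with a match on either strand in capitals.
Csnk1e, chr15:79442094-79442393, minus strand: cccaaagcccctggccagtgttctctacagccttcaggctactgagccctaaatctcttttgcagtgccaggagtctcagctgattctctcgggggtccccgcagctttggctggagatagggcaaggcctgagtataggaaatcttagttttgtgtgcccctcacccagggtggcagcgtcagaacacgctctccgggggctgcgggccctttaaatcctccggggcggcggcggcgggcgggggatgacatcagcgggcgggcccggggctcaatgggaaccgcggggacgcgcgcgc
Rag1, chr2:101649483-101649782, minus strand: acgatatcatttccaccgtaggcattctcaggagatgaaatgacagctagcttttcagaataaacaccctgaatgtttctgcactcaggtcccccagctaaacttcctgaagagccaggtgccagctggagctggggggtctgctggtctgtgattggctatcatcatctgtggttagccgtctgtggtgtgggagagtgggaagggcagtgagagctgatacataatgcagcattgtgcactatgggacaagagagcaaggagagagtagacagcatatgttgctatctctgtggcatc
A2ml1, chr6:128581557-128581856, minus strand: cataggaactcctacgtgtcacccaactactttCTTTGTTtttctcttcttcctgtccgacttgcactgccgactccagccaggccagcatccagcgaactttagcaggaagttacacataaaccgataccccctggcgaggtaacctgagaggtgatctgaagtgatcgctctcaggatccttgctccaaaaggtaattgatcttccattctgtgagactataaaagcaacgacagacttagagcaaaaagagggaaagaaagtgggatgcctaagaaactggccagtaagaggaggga
The first listed window of a gene held AACAAAG on either strand in 5.79% of 27025 genes. Among kept genes the share was 4.91% of 1588 that rose, 3.24% of 1758 that fell and 3.40% of 4209 that did not pass the test. Of the 24 largest rises with a window, 1 held it. A match is a description of the letters and not a binding site, and the lack of one in the Csnk1e and Rag1 windows says only that these letters are not there.

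Surface molecules that B cell precursors gain as they mature were among the largest rises. Enpep, the aminopeptidase known as BP-1 that marks late pro-B and pre-B cells, read 5.48, 5.66 and 5.51 on the HA arrays and 11.94, 12.17 and 12.08 on the HA-Sox4 arrays, a 91.2-fold difference (adjusted p = 8.61e-08). Cd2, an adhesion molecule that mouse B lineage cells display from the pre-B stage, read 4.43, 4.84 and 4.62 against 9.17, 9.39 and 9.10, at least 15.8-fold higher. Cd22, an inhibitory co-receptor of the B cell receptor, was at least 8.48-fold higher, and Ly6d, a marker of B lineage commitment, at least 10.5-fold higher. Each of these genes was detected on all HA-Sox4 arrays, and for Cd2, Cd22 and Ly6d on none of the HA arrays. The receptor tyrosine kinase gene Kit, an early progenitor marker, also rose, from 6.07, 5.91 and 6.46 to 8.38, 8.43 and 8.52 (2.30 ± 0.15). Not all markers gained during maturation rose, and Il2ra (CD25), which mouse B lineage cells gain at the pre-B stage, fell by 0.66. Cd93, a marker of immature B cells, fell by 0.69, Spn (CD43) by 0.74 and Il7r, the interleukin-7 receptor chain, by 0.39 on the log2 scale. Of Spn's 3 kept probes 2 fell, and 5 of 5 probes of Il7r fell. Over the 13 measured surface markers of pro-B and pre-B cells, 7 rose (53.8%), 5 fell (38.5%) and Ptprc, which encodes CD45, did not pass the test (-0.03). Their median difference was 0.55, against -0.05 over all genes. Of the 7 rises, Cd2, Cd22 and Ly6d were kept through the HA-Sox4 arrays alone.

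The antigen presentation genes Cd74 and H2-Ab1 led the list of MHC class II and mature B cell genes. Cd74, the invariant chain of MHC class II, read 7.68, 7.50 and 7.67 against 11.56, 11.60 and 11.70, 16-fold higher (adjusted p = 3.10e-07). H2-Ab1, the class II beta chain, read 5.47, 5.63 and 5.64 against 9.10, 9.29 and 9.36 (3.67 ± 0.10, adjusted p = 6.51e-07). In both genes all HA-Sox4 values lay more than 3 log2 units above the HA values. Among the other mature B cell genes Cd40, a TNF receptor family co-stimulator, rose by 0.97, Ms4a1 (CD20) by 0.59 and H2-Oa by 0.38, while H2-DMb1, H2-DMb2, H2-Ob and Cxcr5 had differences of -0.10 to 0.38 that did not pass. In all, 5 of the 11 measured genes rose (45.5%) and 2 fell (18.2%), and their median was 0.38. H2-DMa was among the falls, with kept probes at -0.55 (adjusted p = 0.0269) and -0.63 (adjusted p = 0.0125).

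**Figure D1:**
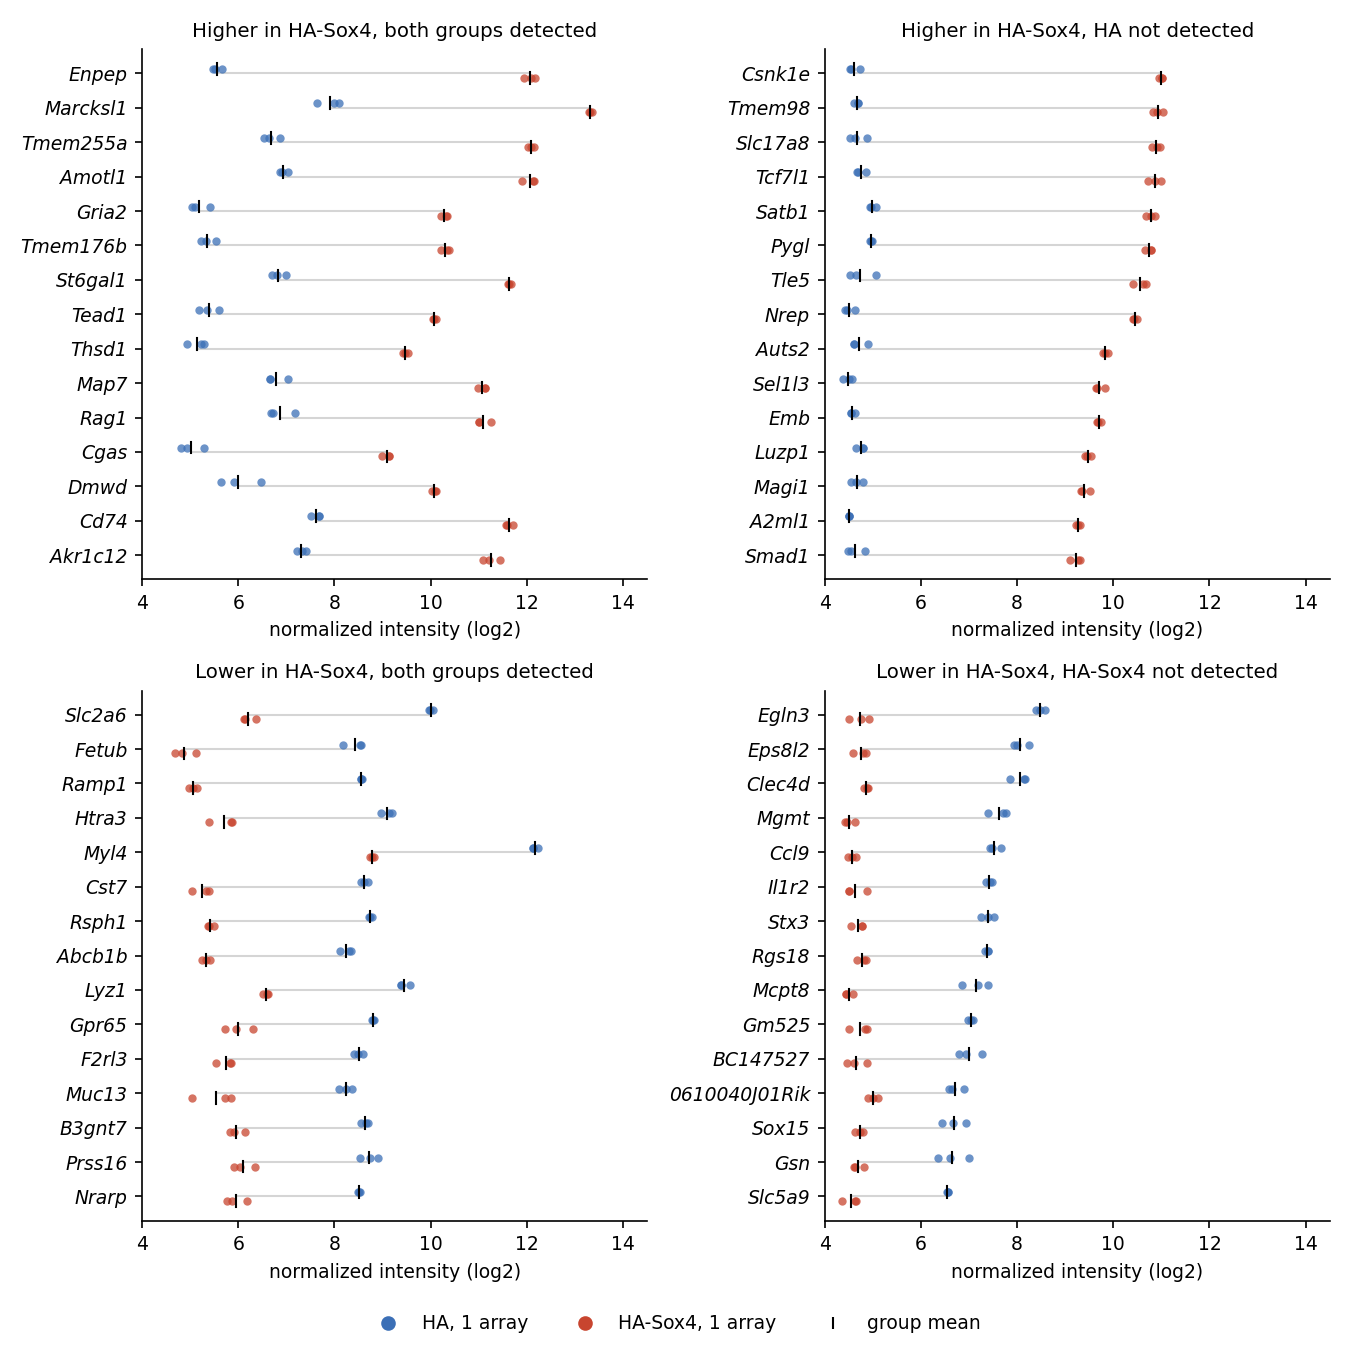
Normalized log2 intensity on each array for the 15 largest rises and falls of genes detected in both groups (left) and of genes not detected in one of them (right); points are single arrays and black ticks are group means. The genes were chosen among those whose groups do not overlap. The rises span up to 6.51 log2 units while the largest fall, of Slc2a6, has a difference of -3.80.

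The other large rises covered cell shape, membrane proteins and transcription factors. Marcksl1, a relative of the actin-binding MARCKS protein, rose 42.4-fold, from 8.09, 7.64 and 7.997 to 13.35, 13.29 and 13.31, with all 4 kept probes higher. Amotl1, an angiomotin relative that binds the Hippo effector YAP, read 7.02, 6.86 and 6.90 against 12.14, 11.90 and 12.12 (34.9-fold). The TEAD factor gene Tead1, the DNA-binding partner of YAP, read 5.35, 5.19 and 5.61 against 10.07, 10.12 and 10.05 (25.9-fold). Groups were apart by more than 4 log2 units in each. Gria2, a subunit of AMPA-type glutamate receptors, was 34.3-fold higher and all 3 of its probes rose. St6gal1, the sialyltransferase that makes the ligand of Cd22, read 6.70, 6.996 and 6.80 against 11.62, 11.61 and 11.68 (27.8-fold). Tmem176b, a membrane protein gene, rose 30.8-fold, Thsd1 20.1-fold, and Map7, which encodes a microtubule-associated protein, 19.5-fold. The cytosolic DNA sensor gene Cgas read 5.30, 4.92 and 4.81 against 9.12, 9.14 and 8.99 (16.9-fold), and Dmwd and the aldo-keto reductase gene Akr1c12 rose 16.9-fold and 15.3-fold. Of genes not detected in HA cells, Auts2, whose product is found in a variant Polycomb complex, was at least 24.2-fold higher with all 3 probes up. Emb, which encodes the monocarboxylate transporter partner embigin, read 4.62, 4.56 and 4.54 against 9.74, 9.68 and 9.67 and was at least 22.0-fold higher. The scaffold gene Magi1 was at least 17.9-fold, Luzp1 at least 18.9-fold and the protease inhibitor relative A2ml1 at least 16.4-fold higher. Tmem98, the vesicular glutamate transporter gene Slc17a8, Nrep and Sel1l3 were at least 51.8-fold, 50.7-fold, 37.1-fold and 22.2-fold higher, and Tmem255a, detected in both groups, 42.1-fold. Probes of Smad1, a signal transducer of BMP receptors, went both ways. Its brightest probe was at least 16-fold higher and a second probe rose by 4.46, while the remaining probe fell by 0.85 (adjusted p = 0.00263).

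Largest among the falls was Slc2a6, a hexose transporter gene, which read 10.06, 9.97 and 9.99 on the HA arrays and 6.11, 6.14 and 6.37 on the HA-Sox4 arrays, 13.9-fold lower (-3.80 ± 0.10, adjusted p = 4.42e-07). Egln3, an oxygen-sensing prolyl hydroxylase, fell from 8.58, 8.40 and 8.47 to values not well above background on any HA-Sox4 array, at least 10.3-fold lower, with both probes down. Myl4, a myosin light chain of embryonic muscle and atrium, was by far the brightest of these genes and stayed detected, at 12.13, 12.22 and 12.13 against 8.77, 8.74 and 8.82 (10.4-fold lower). Several of the falls were receptor genes. Ramp1, a partner subunit of the CGRP receptor, read 8.56 on each HA array and 5.13, 5.07 and 4.98 on the HA-Sox4 arrays (11.3-fold lower). The acid-sensing receptor gene Gpr65 was 6.96-fold and F2rl3, the thrombin receptor PAR4, 6.80-fold lower. Il1r2, the decoy receptor of interleukin-1, was at least 4.96-fold lower and Rgs18, a regulator of G protein signalling in blood cells, at least 4.78-fold.

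Genes known from myeloid cells also stood among the largest falls. Lyz1, which encodes lysozyme, read 9.39, 9.56 and 9.38 against 6.61, 6.52 and 6.60 (7.29-fold lower), and its neighbour Lyz2 fell by 2.52. The 2 lysozyme genes are close copies whose probes may read each other's RNA. Cst7, which encodes the cystatin F inhibitor of lysosomal proteases, was 10.3-fold lower. Clec4d, a C-type lectin receptor of myeloid cells, read 8.14, 8.16 and 7.85 in HA cells and was at least 7.65-fold lower in HA-Sox4 cells, and the chemokine gene Ccl9 was at least 5.31-fold lower. Mcpt8, a basophil protease, was at least 4.07-fold lower. Fcgr3, an Fc receptor, was at least 1.501-fold lower (adjusted p = 0.0279), and that call was lost when any HA-Sox4 array was left out (adjusted p = 0.0585 to 0.0876). Lyz1, Lyz2 and Fcgr3 are the genes that make up the summed myeloid level given above, so that sum is no separate reading of them. Car2, carbonic anhydrase 2, fell by 1.75, from 11.83, 12.04 and 12.04 to 10.44, 10.04 and 10.18, and made up most of the erythroid sum. The remaining large falls had varied functions. Fetub (fetuin-B) was 11.7-fold lower, the serine protease Htra3 10.5-fold, Rsph1, a radial spoke protein of cilia, 9.98-fold, and the drug efflux pump Abcb1b 7.52-fold. Muc13, a transmembrane mucin, was 6.51-fold lower, the glycosyltransferase B3gnt7 6.36-fold, and Prss16, a thymic serine protease, 6.16-fold. Mgmt, which repairs alkylated guanine in DNA, read 7.71, 7.76 and 7.39 in HA cells and was at least 5.68-fold lower. Eps8l2, an actin-regulating adaptor, was at least 7.70-fold and Stx3, a syntaxin, at least 4.87-fold lower, and Sox15 at least 2.96-fold. Gm525, BC147527, 0610040J01Rik, the actin-severing protein gene Gsn and the sugar transporter gene Slc5a9 were at least 2.70-fold to 3.79-fold lower.

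Of 13 measured genes of V(D)J recombination 5 rose (38.5%) and 3 fell (23.1%), with a median of -0.10. Of the 5 rises, Rag2, Dntt and Polm were kept through the HA-Sox4 arrays alone. Dntt, the terminal transferase that adds N nucleotides at coding joins, and Polm, a polymerase of end joining, rose beside the Rag genes, by at least 1.68-fold and 1.59-fold. The related polymerase gene Poll fell by 0.93 and the ligase gene Lig4 by 0.95. Lig4 read 7.89, 7.75 and 7.70 on the HA arrays and 7.46, 6.58 and 6.45 on the HA-Sox4 arrays, and its call was lost without HA array 1 or 2 or HA-Sox4 array 2 or 3 (adjusted p = 0.0508 to 0.0704). The pre-B cell receptor list held 5 rises (27.8%) and 4 falls (22.2%) among 18 measured genes (median -0.05), shares near those over all genes. Its structural genes did not pass the test, with differences of 0.01 for Igll1, -0.07 for Vpreb1 and 0.20 for Cd79b. Of its tyrosine kinase genes Blk, Zap70 and Syk fell, Fyn rose by 0.46 and Btk had a difference of -0.03 that did not pass. The call of Fyn was lost without HA array 1 or 2 or HA-Sox4 array 1 or 3 (adjusted p = 0.0650 to 0.0918). Blk, a Src-family kinase, read 8.88, 8.72 and 8.61 against 6.41, 6.40 and 5.96 (-2.48 ± 0.15). Zap70 fell by 1.57, Syk, its relative and the main kinase of the receptor, by 1.02 and the phospholipase gene Plcg2 by 1.12. Blnk, the adaptor that links Syk to Plcg2, rose by 1.29, and Lcp2, the adaptor SLP-76, by 0.94.

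Of 25 transcription factors of early B cells 14 did not pass the test, 8 rose (32%) and 3 fell (12%), with a median of 0.12. Ebf1 had a difference of -0.32 (adjusted p = 0.0673), Pax5 of 0.35 and Tcf3 (E2A) of 0.08. The related repressor genes Gfi1 and Gfi1b went opposite ways. Gfi1 read 6.78, 6.81 and 6.85 against 9.19, 9.02 and 8.96 (2.25 ± 0.09), and Gfi1b 9.60, 9.57 and 9.58 against 7.30, 7.42 and 7.12 (-2.30 ± 0.10). No value of one group fell within the range of the other for either gene. Foxo1, an activator of the Rag genes, rose by 1.07, Bcl11a by 1.09 and Tcf4 (E2-2) by 1.02, and Runx1 fell by 1.47. A second Foxo1 probe had a difference of 0.49 that did not pass (adjusted p = 0.0806).

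**Figure D2:**
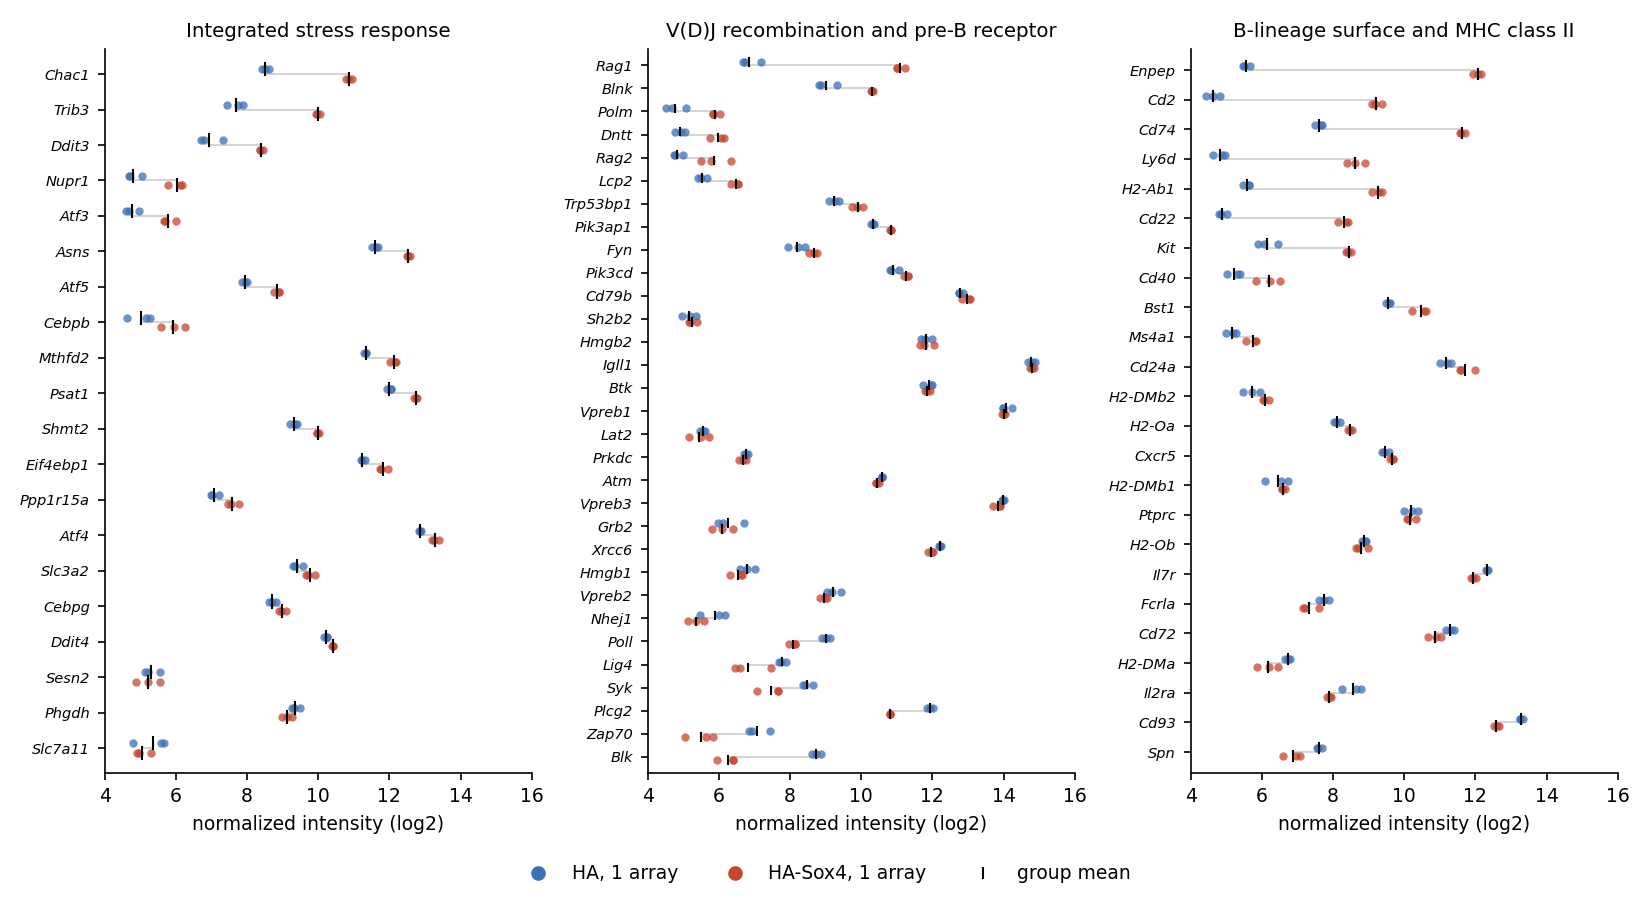
Normalized log2 intensity on each array for the measured genes of 3 groups of lists, ordered by their difference; points are single arrays and black ticks are group means. Chac1 and Trib3 lead the stress response genes, Rag1 stands apart at the top of the recombination and pre-B receptor genes with Blk at the bottom, and Enpep, Cd2, Cd74, Ly6d, H2-Ab1 and Cd22 are separated by more than 3 log2 units.

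Some of the largest rises were of factors that act at Wnt target genes. Of 12 measured TCF/LEF factors, Groucho corepressors and Wnt targets 6 rose (50%) and 2 fell (16.7%), with a median of 0.31. Tcf7l1 read 4.86, 4.68 and 4.69 against 10.73, 10.86 and 10.99 and was at least 49.3-fold higher. Tcf7l2 read 5.52, 5.59 and 5.34 against 9.11, 9.09 and 8.69 (3.48 ± 0.14), and Lef1 had a difference of -0.13 that did not pass. Nkd2, a Wnt antagonist, rose by 2.97 and the Groucho relatives Tle5, Tle6 and Tle3 rose, Tle5 by at least 40.3-fold, whereas Tle1 fell by 1.07. Among the classical Wnt targets Myc fell by 0.67 and Ccnd1 had a difference of -0.31 that did not pass. Of 22 measured casein kinase and Wnt core genes 8 rose (36.4%) and 3 fell (13.6%), with a median of 0.25. Of the 22, 4 were detected in 1 group only, Csnk1e, Lrp5 and Fzd3 among them. Next to Csnk1e, the other casein kinase 1 genes moved little, with differences of 0.49 for Csnk1a1, 0.24 for Csnk1g3 and -0.30 for Csnk1d, the closest relative of Csnk1e, all past the threshold. The call was lost for Csnk1a1 without HA array 2 or 3 or HA-Sox4 array 1 or 2 (adjusted p up to 0.125), for Csnk1d without HA array 1 or 3 or HA-Sox4 array 1 or 3 (up to 0.0945) and for Csnk1g3 without any 1 of the 6 arrays (up to 0.0918). Of the Wnt receptor genes Fzd7 rose by 1.46, and Lrp5 and Fzd3, detected on no HA array, were at least 1.76-fold and 1.66-fold higher. The ligand gene Wnt10a fell from 10.82, 10.77 and 10.74 to 8.65, 8.41 and 8.44. Ctnnb1, which encodes beta-catenin, had a difference of 0.25 that did not pass.

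In the Notch pathway the receptor gene Notch3 was at least 5.50-fold higher and the target Hes1 read 6.76, 6.60 and 6.78 against 8.93, 8.99 and 8.76 (2.18 ± 0.10), while the feedback inhibitor Nrarp read 8.50, 8.54 and 8.48 against 5.88, 5.77 and 6.18 (-2.56 ± 0.12). Notch1 had a difference of -0.15 that did not pass, and the list held 4 rises (36.4%) and 1 fall (9.09%) among 11 genes. Of 7 measured genes of the IGF axis 4 rose (57.1%) and none fell (median 0.95). Igf2, a fetal growth factor, read 4.86, 5.35 and 5.33 against 8.56, 8.56 and 8.43 (10.1-fold), and Igf2r, the receptor that clears it, 6.37, 5.82 and 6.21 against 9.12, 9.23 and 9.37 (3.11 ± 0.15). The adaptor gene Irs2 rose by 2.31. Tead1 led 4 rises (66.7%) without a fall among 6 measured TEAD and Hippo genes, with Vgll4, a TEAD cofactor, up by 1.15 and the kinase Stk4 (MST1) up by 0.63. Actin genes held 12 rises (52.2%) and 3 falls (13.04%) among 23 (median 0.26), and beside Marcksl1 the focal adhesion gene Zyx was at least 9.06-fold and the formin gene Fmnl2 at least 5.66-fold higher. Chromatin organizers held 7 rises (50%) and 3 falls (21.4%) among 14. The rises were led by Satb1, Auts2 and the linker histone gene H1f10, the last at least 3.58-fold higher. These 3 genes were kept through the HA-Sox4 arrays alone. Pcgf5 was among the falls, with kept probes at -0.97 and -1.13.

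**Figure D3:**
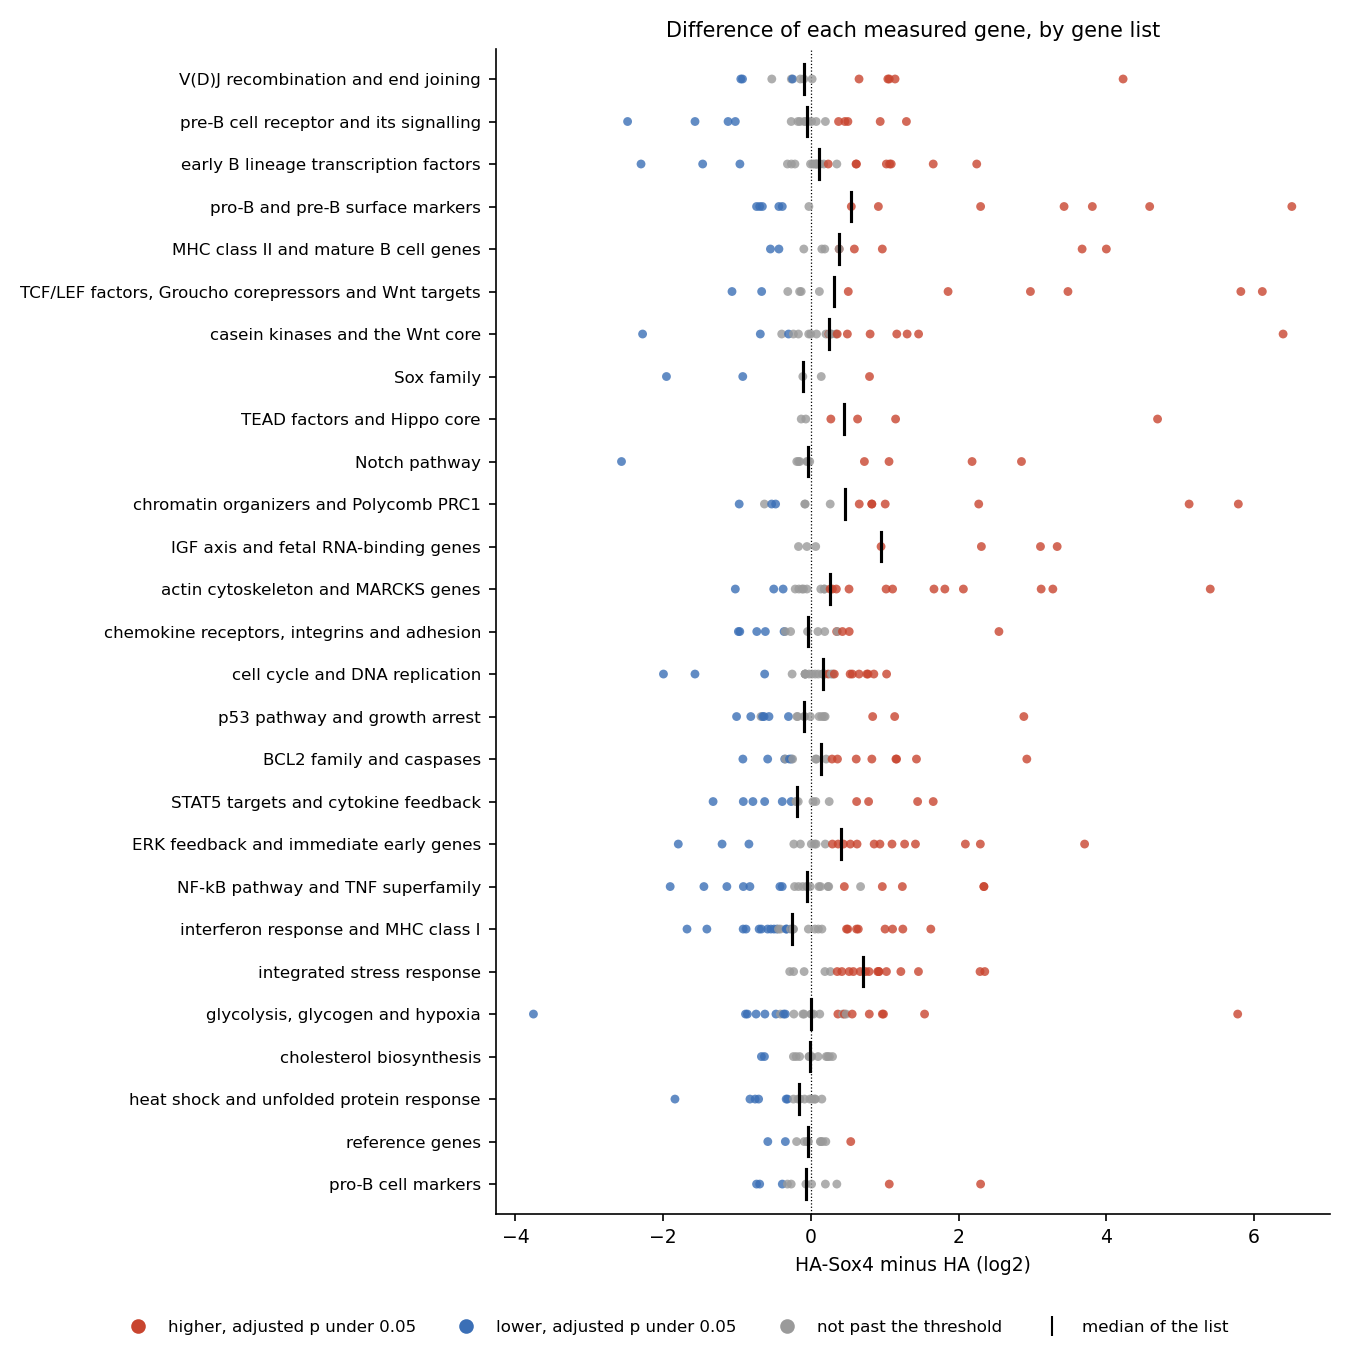
HA-Sox4 minus HA difference (log2) of every measured gene in the lists with at least 5 measured genes; red points passed the test as higher, blue as lower, grey did not pass, and the black tick is the median of the list. The integrated stress response has red and grey points only, with a median of 0.70, and the heat shock and unfolded protein response list has blue and grey points only.

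The integrated stress response, in which the factor ATF4 switches on amino acid synthesis and stress genes, had 20 measured genes, of which 15 rose and none fell, a share of 75% beside 21.3% of all genes. Like the other lists, it was chosen with earlier results of these data known, and its share was not tested. The median difference was 0.70 beside -0.05 over all genes, and 0.62 with genes detected in 1 group only at their bound. Chac1, which degrades glutathione, read 8.61, 8.41 and 8.52 against 10.87, 10.94 and 10.78 (2.35 ± 0.09, adjusted p = 2.69e-06). Trib3, a pseudokinase, read 7.75, 7.45 and 7.89 against 10.05, 9.95 and 9.96 (2.29 ± 0.12), and all 3 of its probes rose. In neither gene did the groups overlap. Asns, asparagine synthetase, was bright in both groups and rose by 0.92, from 11.63, 11.52 and 11.68 to 12.51, 12.51 and 12.57. Atf5 rose by 0.92, the serine and folate pathway genes Psat1 and Mthfd2 by 0.74 and 0.79, the stress factor gene Ddit3 (CHOP) by 1.46 and Atf4 by 0.42. Sesn2, Slc7a11, Phgdh, Ddit4 and Cebpg did not pass, with differences of -0.29 to 0.26, Cebpg at 0.26. The call of Cebpg depended on the processing. It passed as higher on intensities left without background correction and on those the authors had processed (both 0.21, adjusted p = 0.0237), where detection on every array was asked for (0.0449) and with a variance trend (0.0290), and it passed as lower with the mean of its probes (-0.31, adjusted p = 0.0366). Windows of 3 of the named genes are shown because they hold the letters TGATGNAA, those of the element that ATF and C/EBP factors share, in capitals on either strand.
Chac1, chr2:119350992-119351291, plus strand: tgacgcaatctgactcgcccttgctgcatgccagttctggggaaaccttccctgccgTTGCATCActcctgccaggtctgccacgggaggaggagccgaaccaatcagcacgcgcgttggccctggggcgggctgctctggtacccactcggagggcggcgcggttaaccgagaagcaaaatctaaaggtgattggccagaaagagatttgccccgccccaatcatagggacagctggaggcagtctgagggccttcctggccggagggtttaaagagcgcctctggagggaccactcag
Trib3, chr2:152344011-152344310, minus strand: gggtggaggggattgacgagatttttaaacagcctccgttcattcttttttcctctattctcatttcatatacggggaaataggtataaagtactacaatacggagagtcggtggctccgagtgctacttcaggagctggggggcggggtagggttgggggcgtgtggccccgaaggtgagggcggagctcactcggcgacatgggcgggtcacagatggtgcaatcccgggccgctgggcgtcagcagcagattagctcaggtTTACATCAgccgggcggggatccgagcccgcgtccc
Asns, chr6:7693160-7693459, minus strand: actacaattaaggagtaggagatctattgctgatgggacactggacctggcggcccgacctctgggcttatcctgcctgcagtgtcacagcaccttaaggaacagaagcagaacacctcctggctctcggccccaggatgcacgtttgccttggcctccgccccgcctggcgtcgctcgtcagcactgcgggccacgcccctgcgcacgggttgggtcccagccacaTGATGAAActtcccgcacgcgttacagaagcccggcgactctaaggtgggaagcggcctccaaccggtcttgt
The letters began at base 58 of the Chac1 window, at base 265 of the Trib3 window and at base 228 of the Asns window, counted from 1 at the upstream end of the window, with the annotated start at base 251. Of the 14 genes of the list that rose and have a window, 5 held them, Asns, Atf3, Chac1, Nupr1 and Trib3. The share was 4.06% over 27025 genes, 2.64% over kept genes that rose and 1.82% over those that fell. The letters were searched after the rise of the list was known.

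Of 16 measured genes of the heat shock and unfolded protein response, the latter sharing stress sensors with that pathway, none rose, 6 fell (37.5% beside 22.8% of all genes) and 10 did not pass (median -0.16). Xbp1, the factor spliced by the sensor IRE1, read 12.56, 12.73 and 12.75 against 10.79, 10.93 and 10.80 (-1.84 ± 0.09). The endoplasmic reticulum chaperone genes Hspa5 (BiP), Calr and Sdf2l1 fell by 0.71, 0.75 and 0.83. The cytosolic heat shock genes Hspa8, Hsp90aa1 and Dnajb1 had differences of -0.15 to 0.15 that did not pass.

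Genes downstream of kinases and cytokines changed in both directions. Of 22 measured ERK feedback and immediate early genes 13 rose (59.1%) and 3 fell (13.6%), with a median of 0.40. The ERK phosphatase gene Dusp4 read 5.21, 5.48 and 4.90 against 8.90, 8.99 and 8.82 (3.71 ± 0.15). Egr1 rose by 1.27 and Klf2 was at least 3.11-fold higher, while Klf4 fell by 1.80 and Junb by 1.20. Egr3 was at least 2.82-fold higher by 1 probe, and its other probe had a difference of -0.33 that did not pass. Of 16 STAT5 targets and cytokine feedback genes 4 rose (25%) and 6 fell (37.5%), with a median of -0.19, and Cish and Pim1 rose by 1.45 and 0.78 while Socs1 fell by 0.79 and Lif fell by 1.32. The NF-kB and TNF superfamily list held 5 rises (21.7%) and 7 falls (30.4%) among 23. Its 2 neighbouring lymphotoxin genes went opposite ways, Lta from 12.11, 11.93 and 11.85 down to 10.12, 10.09 and 9.97, and Ltb from 7.22, 7.70 and 6.72 up to 9.57, 9.59 and 9.52. Tnf, which lies between them, fell by 1.45. Tnfrsf13c, the receptor of the B cell survival factor BAFF, read 7.76, 7.70 and 7.42 against 9.95, 9.95 and 10.01 (2.34 ± 0.11). Ccr7, a homing receptor of lymphocytes, rose by 2.55, and the integrin chain Itga4 and Cd44 fell by 0.98 and 0.73.

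Interferon and MHC class I genes held 8 rises (25.8% beside 21.3% of all genes) and 13 falls (41.9% beside 22.8%) among 31 measured genes (median -0.25). Those that rose were interferon-induced antiviral genes such as Rsad2, Ifit3, Ifit2 and Oasl2, by 1.62, 1.24, 1.11 and 1.00. Those that fell included the class I antigen processing genes Tap2, Tap1, Psmb9 and Psmb8, by 1.41, 0.50, 0.70 and 0.46, and Ifi27l2a by 1.68. B2m, the light chain of class I, had a difference of -0.03 that did not pass.

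Of 27 measured cell cycle and DNA replication genes 9 rose (33.3%) and 3 fell (11.1%), with a median of 0.16, and the replication genes Mcm2, Mcm3, Mcm4, Mcm5 and Mcm6 had differences of -0.25 to 0.06 that did not pass. Cdk6, a D-type cyclin kinase, read 7.56, 7.76 and 7.68 against 5.84, 5.63 and 5.54 (-2.00 ± 0.11), while Cdk4 and Cdk2 rose by 0.77 and 0.65. Cdkn2a, which encodes p16 and ARF, read 9.62, 9.53 and 9.65 against 8.44, 7.86 and 7.79, and all 3 probes fell. Among p53 pathway genes 3 of 19 rose (15.8%) and 6 fell (31.6%), with a median of -0.09. Gadd45a, a growth arrest and stress gene, rose by 2.88, and the p53 targets Cdkn1a, Ccng1, Phlda3 and Aen fell by 0.63, 0.57, 0.81 and 0.65. In the BCL2 family the pro-apoptotic BH3-only genes Bmf and Bcl2l11 (BIM) rose, Bmf from 5.01, 4.84 and 4.76 to 7.65, 7.92 and 7.82. Their relative Bid and the effector Bak1 fell by 0.59 and 0.92, and the anti-apoptotic Bcl2l1 rose by 0.83. Other kept probes of Bcl2l1 had differences of 0.21 and 0.39 that did not pass. A further Bcl2l11 probe rose by 1.19, and another had a difference of 0.13 that did not pass. In all 8 of 18 genes of that list rose (44.4%) and 5 fell (27.8%), with a median of 0.14.

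In carbohydrate metabolism 8 of 26 genes rose and 8 fell (30.8% each), with a median of 0.01. Pygl, the liver form of glycogen phosphorylase, read 4.98, 4.97 and 4.95 against 10.65, 10.79 and 10.79 and was at least 45.5-fold higher. The glucose transporter gene Slc2a3 rose by 1.54, Vegfa by 0.98 and the glycolytic regulator Pfkfb4 by 0.97, while the glycolytic enzymes Hk1, Pfkp, Aldoa and Ldha fell by 0.89, 0.86, 0.74 and 0.62. Cholesterol biosynthesis genes had no rise and 2 falls (14.3%) among 14 (median -0.01). Of 12 reference genes 1 rose (8.33%) and 2 fell (16.7%), and Gapdh, Actb and Tbp had differences of -0.09, 0.13 and -0.05 that did not pass, Actb turning to -0.20 with the mean of its probes (adjusted p = 0.0456).

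The primary cells gave a second reading of a related question, since Sox4fl/fl cells keep Sox4 and Sox4fl/fl SE-Cre cells are the deleted ones. By label these primary groups also differ in SE-Cre itself, which both HA and HA-Sox4 cells carry. The part of SE-Cre was not tested. The experiments share no arrays, but the primary cells were not immortalized, and batch and cell state cannot be told apart between experiments. Of 1710 genes higher in HA-Sox4 cells and kept in both experiments, 462 (27%) were also higher in Sox4fl/fl cells and 89 (5.20%) were lower, where 9.04% and 7.41% of all 8278 shared genes were. Of 2013 genes lower in HA-Sox4 cells 307 (15.3%) were also lower in Sox4fl/fl cells and 83 (4.12%) were higher. Read from the other list, 61.8% of the genes higher in Sox4fl/fl cells were higher in HA-Sox4 cells, where 20.7% of the shared genes were, and 50.1% of those lower in Sox4fl/fl cells were lower in HA-Sox4 cells, where 24.3% of the shared genes were. In the fit of all 12 arrays the HA-Sox4 difference departed from the Sox4fl/fl difference for 1890 of 9249 genes (20.4%) at an adjusted p under 0.05, and 172 of them passed in both experiments with opposite signs. Rag1 was 4.23 log2 units higher in HA-Sox4 cells and 3.47 higher in Sox4fl/fl cells, and Chac1 2.35 and 1.68 higher. Xbp1 was lower in both, with differences of -1.84 and -1.10, and so was Lyz2, with -2.52 and -1.50. Not all large rises in HA-Sox4 cells had a counterpart in primary cells. Marcksl1 and St6gal1 were also higher in Sox4fl/fl cells, by 5.19 and 1.97. The difference between experiments did not pass for Marcksl1 (0.0084, adjusted p = 0.984) and passed for St6gal1 (2.77, adjusted p = 1.29e-06). Cd74, Amotl1, Cgas and Magi1 did not pass there, with differences of 0.06, -0.23, -0.35 and 0.14. Nor did H2-Ab1, read by another of its probes in primary cells (-0.15). For these last 5 genes the difference between experiments passed the test. The difference between experiments did not pass for Rag1 (0.64, adjusted p = 0.227), whereas it passed without background correction (0.79, adjusted p = 0.00586) and on the intensities that the authors had processed (1.11, adjusted p = 0.000176). It was 0.37 without Sox4fl/fl SE-Cre replicate 2 and 0.42 without Sox4fl/fl replicate 3, neither past the threshold.

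Genes with opposite signs included B lineage regulators and growth genes. The Sox4fl/fl minus SE-Cre difference of Blk was 2.77 and its HA-Sox4 minus HA difference -2.48, a difference between experiments of -5.23 ± 0.25 (adjusted p = 9.98e-09). For Gfi1 the values were -2.20 and 2.25, and for Gfi1b, in the reverse pattern, 1.30 and -2.30 (difference between experiments -3.74, adjusted p = 1.81e-07). Igf2 was bright in the primary cells, at 10.75 in Sox4fl/fl and 13.05 in SE-Cre cells, and dim in HA cells, as given above. These levels come from separate normalizations of the primary and the immortalized arrays. Gldc, which encodes the glycine decarboxylase of mitochondria, had differences of -1.24 in primary and 3.92 in immortalized cells. It read 9.75, 9.85 and 9.94 in HA and 13.72, 13.75 and 13.83 in HA-Sox4 cells. The proton sensor Gpr65, detected on no primary SE-Cre array, was at least 3.27-fold higher in Sox4fl/fl cells and had a difference of -2.80 in immortalized cells. Acer3, an alkaline ceramidase gene, had differences of -1.88 and 3.00, Zcchc18 of -1.50 and 3.19, and the short-chain fatty acid receptor gene Ffar2 of -1.16 and 3.00. Fhl1, which encodes a LIM domain protein, read 4.40, 4.42 and 4.33 on the HA arrays and 9.02, 9.13 and 9.04 on the HA-Sox4 arrays, against a difference of -0.64 in primary cells, where 1 of 3 Sox4fl/fl arrays detected it. Gm5662, detected on no HA and no Sox4fl/fl array, was at least 16.5-fold lower in Sox4fl/fl than in SE-Cre cells, and HA-Sox4 cells exceeded HA cells at least 1.86-fold. These are values of its brightest probe. The other kept probe of Gm5662 had an HA-Sox4 minus HA difference of 0.07 that did not pass (adjusted p = 0.822). For each of these genes the difference between experiments passed the test.

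**Figure D4:**
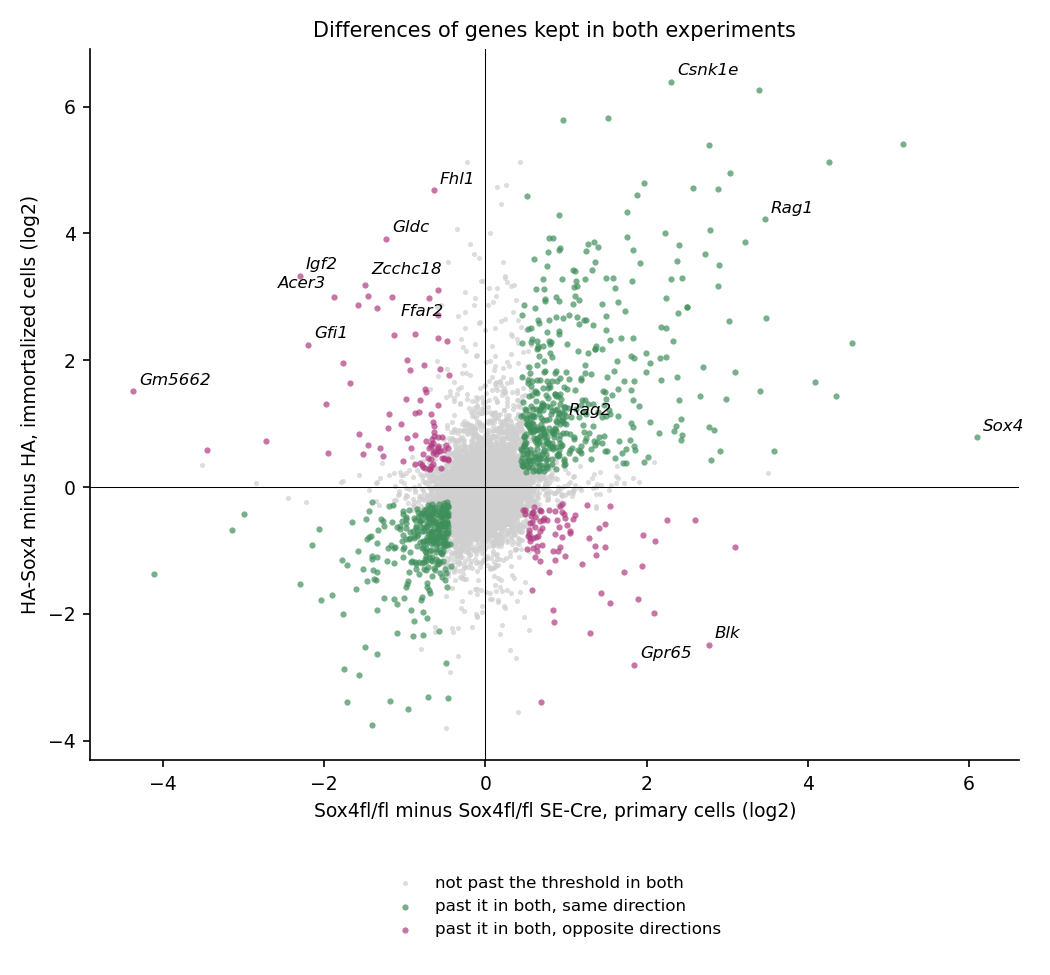
HA-Sox4 minus HA difference in immortalized cells against Sox4fl/fl minus Sox4fl/fl SE-Cre difference in primary cells (both log2) for the 8278 genes kept in both experiments; green points passed the test in both with the same sign and magenta points with opposite signs. Rag1, Rag2, Csnk1e and Sox4 lie in the upper right, and Blk and Gpr65 in the lower right. Some genes are read by different probes in the experiments.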

How the data were processed

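Probe intensities and a detection p-value for each were deposited by the authors as 1 table for all 12 arrays. Per the file headers the intensities were not normalized, and by their values they were linear and not background-subtracted. The authors also deposited processed intensities, used here as an alternative. The submitters' processing notes name R 3.0.1 without a role, and the scanner software and bead summarization are not given in the sources used here.

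The 6 HA and HA-Sox4 arrays were normalized by the neqc function of limma 3.58.1 (R 4.3.3), which subtracts background, adds an offset of 16, applies quantile normalization and returns log2 values. Without control probes in the table, neqc estimated the background from the detection p-values. Probes with a detection p under 0.05 on at least 3 of 6 arrays were kept (17504). The test was limma's moderated statistic (lmFit, eBayes) with Benjamini-Hochberg adjustment over the kept probes and a threshold of 0.05. Gene symbols came from the platform annotation, in which 34885 probes had 1 symbol, 18 several and 10378 none. Each gene's values are those of its kept probe with the highest mean. Its primary-cell difference was read on the same probe where that was kept there, and otherwise on the gene's brightest probe kept there. Counts of genes shared between experiments include genes read by different probes. The contrast between experiments used 1 normalization and 1 fit of all 12 arrays, with probes that at least 3 of the 12 detected. The summed marker levels add linear normalized intensities less the offset.

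Genes were named by rule: Sox4, Rag1, Rag2 and Csnk1e; the 15 largest rises and falls with non-overlapping groups, separately for genes detected in both groups and in 1; up to 6 genes of each list by smallest p; and the 10 largest opposite differences between experiments. Other list members are given after their values were seen. The members and lists were chosen with earlier results of these data known. Lists are described by counts and medians and were not tested. Fits were tested on simulated intensities with known changes. The number of arrays limits the precision, and alternatives are given in the closing section. The files give no slide or scan, so neither was used as a block.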

Additional observations from a re-analysis of the deposited data

Results flagged for a closer look

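For 12 genes the HA-Sox4 minus HA difference in immortalized cells departed from the Sox4fl/fl minus SE-Cre difference in primary cells by the test of that difference in the fit of all 12 arrays (limma). They were Sox4 and Csnk1e and the 10 named genes with opposite signs, and the values below are the first difference less the second on the log2 scale. Sox4 stood at -5.91, with a strong signal in primary Sox4fl/fl cells and a weak one in HA-Sox4 cells, and Csnk1e at 3.26. Among the genes with opposite signs, Gm5662 had 6.22, Igf2 5.53, Fhl1 5.28, Gldc 5.21, Acer3 4.84, Zcchc18 4.64, Gfi1 4.48 and Ffar2 4.41. Negative values were found for Blk at -5.23 and Gpr65 at -5.01. The values of Gm5662, Fhl1, Csnk1e, Gpr65 and Sox4 are those of the fit and no measured sizes, because at least 1 group had the gene detected on no array: HA for all but Gpr65, Sox4fl/fl also for Gm5662, and Sox4fl/fl SE-Cre for Csnk1e and Gpr65. The adjusted p-values lay between 3.83e-10 and 1.02e-07. The experiments also differ in immortalization, and the primary groups differ from each other in SE-Cre. The part of either in these differences was not tested.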

How the results depend on the processing

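The number of genes past the threshold lay between 3266 and 4744 under every change of background correction, normalization, detection filter, variance model, weights and probe choice, beside 4085 as reported. Scaling to a common median moved the genes lower in HA-Sox4 cells to 1397. A limit of 1.5-fold left 3855 probes and 2203 genes, 1226 higher and 977 lower by the fitted values, and 1131 and 960 with undetected genes at their bound. Leaving out 1 array at a time gave 5468 to 6202 probes and 3126 to 3530 genes, 1389 to 1796 higher and 1713 to 1761 lower, and 1450 to 1898 genes whose difference departed between experiments. Without an HA-Sox4 array, genes detected only in HA-Sox4 cells could no longer reach 3 arrays and left the test. Same-numbered HA and HA-Sox4 arrays deviated from their group means with correlations of -0.02, -0.0048 and -0.01, so the numbers were not taken as pairs; with the replicate number as a block 6448 probes and 3637 genes passed, 1812 higher and 1825 lower, and 1605 in the difference between experiments. Of 1649 counts and medians of gene lists compared over these settings 196 moved, among them 67 of 527 medians. A count was taken as moved where it changed by more than 1.5-fold or from or to 0. A median was taken as moved where it changed by at least the median residual SD of 0.14. Of 185 named genes past the threshold 177 kept their direction and side of it in every setting that gave them a value. Sox4 lost its call with the block (adjusted p = 0.0614) and without the detection filter (0.0615), Fcgr3 without the filter (0.0520), Fyn (0.0612) and Csnk1a1 (0.0847) without the filter, Csnk1d and Csnk1g3 with the block (0.0776 and 0.0822), without the filter (0.0693 and 0.0749) and under median scaling (0.171 and 0.208), and Atf4 under median scaling (0.0668); the calls lost without 1 array, those of Lig4 included, are given above. Of 218 named genes 16 to 18 had no value without an HA array, 36 without an HA-Sox4 array and 70 where detection on every array was asked for. The reversals were of genes not past the threshold. Under scaling to a common median the difference became -0.083 for Hsp90aa1, -0.025 for Igll1, -0.080 for Mcm4 and -0.029 for Mcm6. With the mean of a gene's probes it became -0.035 for Hsp90aa1, -0.17 for Mcm4, -0.020 for Mcm6, 0.081 for Lef1, -0.20 for Actb and -0.31 for Cebpg, the last 2 then past the threshold. Without 1 array it ran from -0.11 to 0.0062 for Btk, -0.029 to 0.29 for H2-DMb1, -0.024 to 0.090 for Hsp90aa1, -0.041 to 0.054 for Igll1, -0.0073 to 0.058 for Mcm4, -0.13 to 0.060 for Ptprc, -0.094 to 0.013 for Tbp, -0.062 to 0.19 for Tcf3, -0.11 to 0.019 for Vpreb1 and -0.18 to 0.079 for Sesn2. The cause was not tested. Calls were also gained. Cd79b, Ctnnb1, Ddit4, Ebf1, Mcm3, Phgdh and Cebpg passed without background correction, with the authors' values and with a variance trend and robust fit, the last also Hspa8. H2-DMb2 passed under median scaling, Ctnnb1, Cebpg and H2-DMb2 where detection on every array was asked for, and Ebf1 with the mean of its probes (-0.25). Without 1 array, H2-DMb2 passed without HA array 1 (0.50), Pax5 (0.62) and Slc7a11 (-0.57) without HA array 2, Ccnd1 (-0.54) without HA array 3 and Ebf1 (-0.43) without HA-Sox4 array 3. The difference between experiments of Rag2 passed without HA-Sox4 array 2 (-0.76, adjusted p = 0.0103). The difference between experiments of Rag2, -0.56 and not past the threshold, turned to 0.13 under scaling to a common median and to 0.0895 with each experiment normalized alone. Dim probes are limited by signal over background: a group with no detected array gives a bound only.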

Other observations

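Genes were also grouped by chromosome, a split chosen after the data were seen. On chromosome 13, which holds Sox4, 27.6% of 351 kept genes rose and 15.4% fell, against 21.3% and 22.8% of all genes. Chromosome 17 had 16.2% of 481 genes higher and 27.9% lower, and chromosome 8 had 17.6% of 499 genes higher and 26.1% lower. Median differences per chromosome lay between -0.10 and 0.02.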
